A study of Mus musculus with 4 samples.

Results

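The 42 genes described here encode subunits of respiratory complex I, the NADH dehydrogenase of the mitochondrial inner membrane, in the mouse lumbar spinal cord. They were taken from a fixed list by matching the Entrez gene identifiers of the count files to mouse symbols. The matching uses no measured value, but the list was drawn up with earlier results of these data known. All 42 of 42 were found among 27179 identifiers, 7 of them encoded by the mitochondrial genome and 35 by the nuclear genome. By title, 2 libraries came from male C57BL/6J mice with a cuff around the sciatic nerve, a model of chronic neuropathic pain, and 2 from sham-operated male C57BL/6J mice. They are called cuff 1, cuff 2, sham 1 and sham 2 after their titles. Polyadenylated RNA of the L4-6 segments was sequenced, and the series' design text places the comparison 28 days after surgery. Neither the age of the mice nor the number of animals behind a library is stated in the sources used here. The p-values therefore reflect the spread among libraries, which may be technical. The names of the deposited count files carry the opposite condition for all 4 libraries. Groups follow the titles throughout, and should the file names hold instead, each direction between cuff and sham is to be read the other way.

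Complex I takes electrons from NADH, passes them along a chain of iron-sulphur clusters to ubiquinone and pumps protons across the inner membrane. It is shaped like an L: a matrix arm holds the NADH site and the clusters, and a membrane arm holds the proton pumps. The mitochondrial genome encodes core subunits of the membrane arm, while the nuclear genome encodes core subunits of the matrix arm and the accessory subunits that surround both arms. The subunits of a single enzyme are therefore transcribed in separate compartments and brought together by assembly factors. Neurons and their synapses draw heavily on this enzyme for ATP.

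The libraries held 36074864 and 32936609 counts in cuff 1 and cuff 2, against 39461573 and 38823517 in sham 1 and sham 2. Of 16918 genes tested with edgeR's quasi-likelihood test, 696 were called at a Benjamini-Hochberg adjusted p under 0.05, a share of 4.11%, with 195 higher and 501 lower in cuff. That count rests on single libraries: it was 1928 without cuff 1 (714 higher, 1214 lower), 216 without cuff 2 (158 higher, 58 lower), 0 without sham 1 and 13 without sham 2 (5 higher, 8 lower). Neuronal markers, led by Snap25, were present in all libraries (summed 7761 and 6668 CPM in cuff, 7878 and 7314 CPM in sham), as were oligodendrocyte markers led by Mbp (31010 and 26800 CPM in cuff, 29920 and 24400 CPM in sham). CPM are counts for each 1e+06 counts of the scaled library total. All 4 endothelial markers were called higher in cuff, with sums of 70.7 and 73.8 CPM in cuff, against 34.1 and 41.6 CPM in sham. Of the 5 astrocyte markers 1 was called lower, and their sums were 4246 and 3519 CPM in cuff, against 5145 and 5045 CPM in sham. Cuff 2 stood apart in markers of other tissues. The 8 skeletal muscle markers, none of them at 0, summed to 157 and 564 CPM in cuff, against 109 and 74.4 CPM in sham. The 5 Schwann cell markers, none of them at 0, summed to 997 and 3042 CPM in cuff, against 445 and 1068 CPM in sham. Of the 6 sensory ganglion markers, 2 were at 0 in cuff 1, sham 1 and sham 2 and none in cuff 2 (summed 1.41 and 20.2 CPM in cuff, 0.732 and 1.04 CPM in sham). The part of these cells in the values of the complex I genes was not tested. In whole tissue, fewer cells of a type and less RNA per cell cannot be told apart.

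None of the 42 complex I genes was called higher or lower in cuff, against 4.11% of all tested genes in either direction (1.15% higher, 2.96% lower). None had an unadjusted p under 0.05 in edgeR's quasi-likelihood test, against 21.5% of all tested genes, and DESeq2, limma-voom and edgeR's likelihood ratio test called none of them either. All 42 passed the filter on low counts. The 35 nuclear genes had a median log2 fold change of 0.01, from -0.19 for Ndufs1 to 0.21 for Ndufb8, and 28 of them lay within 0.1 of 0. The 7 mitochondrial genes had a median of 0.04, and all tested genes a median of 0.02. The nuclear median was 0.19 without sham 1 and -0.16 without sham 2. Adjusted p-values of edgeR's quasi-likelihood test ran from 0.371 to 0.989 for the nuclear genes and from 0.489 to 0.923 for the mitochondrial genes.

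With 2 libraries a group, the intervals of the nuclear genes rest largely on the spread shared across all tested genes. The nuclear genes also moved together between libraries, so that their intervals are not independent of one another. Without a correction for length, their standard errors ran from 0.13 to 0.19 on the log2 scale, and each of the 35 intervals of 95% lay within 0.5 of 0. The lowest bound was -0.47 and the highest 0.49, which are folds of 0.722 and 1.41. Nuclear complex I transcripts are short, with a median of 908 bases against 3000 bases for all tested genes, and fold changes moved with length in these libraries. The tenth of genes with the shortest transcripts had a median log2 fold change of 0.10, and the tenth with the longest -0.27. With a correction for length and GC content the nuclear median moved to -0.17, while that of the 15466 genes fitted was -0.04. Under that correction 31 of 35 nuclear genes lay below 0, against 56.9% of all genes fitted. The corrected nuclear values ran from -0.29 to 0.21, and that of Ndufa6 was -0.28 ± 0.15 (SE). The bound of 0.5 on the intervals therefore does not carry over to the corrected fit. An unadjusted p under 0.05 was found for 5 of 35, against 16.3% of all genes fitted, and none was called, the smallest adjusted p of edgeR's quasi-likelihood test being 0.205.

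**Figure D1:**
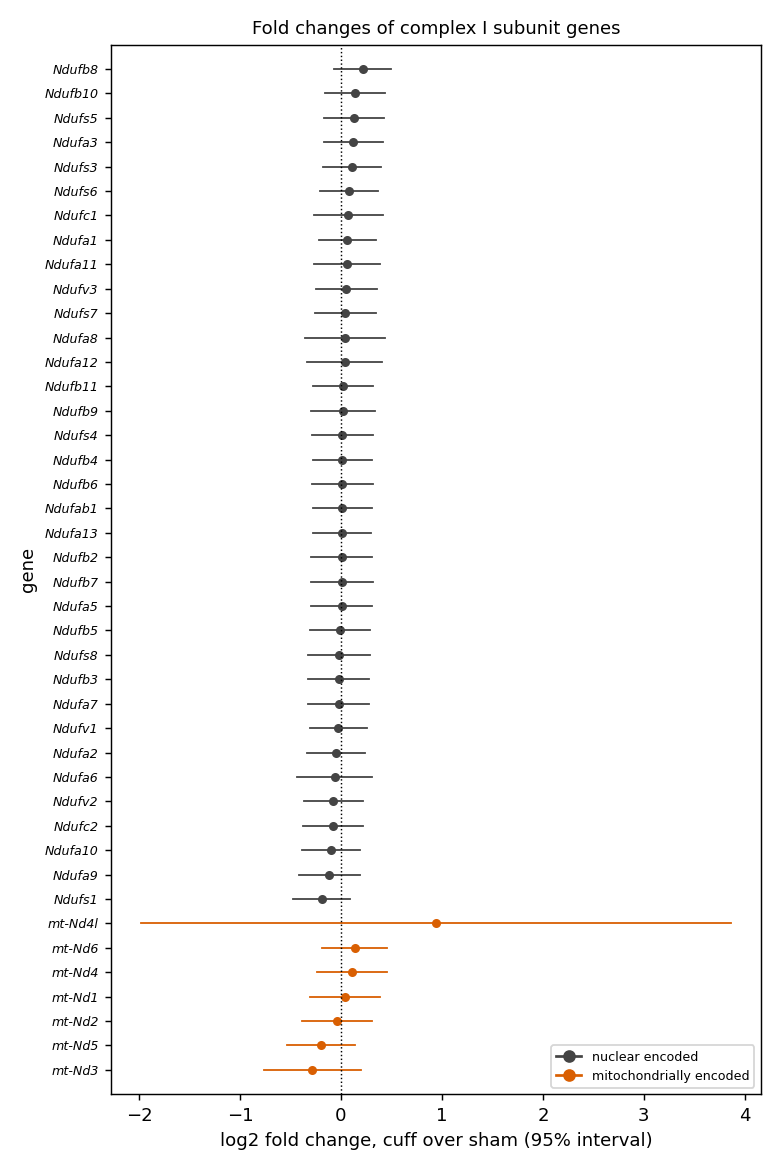
Log2 fold change, cuff over sham, of each of the 42 complex I genes (horizontal axis) with its 95% interval, nuclear genes in grey and mitochondrial genes in orange. Values are without the length and GC correction. All nuclear intervals shown span 0 and stay within 0.5 of it, and the widest interval belongs to mt-Nd4l.

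The core subunits of the matrix arm carry the electrons, and none of the 6 measured here was called. Ndufv1, which binds NADH and the flavin cofactor, had 191.7 and 201.8 CPM in cuff and 216.7 and 183.7 CPM in sham. Ndufv2, which holds an iron-sulphur cluster beside it, had 180.1 and 182.7 CPM in cuff and 213.6 and 169.0 CPM in sham. For both genes the cuff libraries lay between the sham libraries, with log2 fold changes of -0.03 ± 0.13 and -0.08 ± 0.14 (SE). Ndufs1, the largest subunit and the carrier of several further clusters, had 185.5 and 170.0 CPM in cuff, against 216.3 and 190.0 CPM in sham. Its groups did not overlap, but the log2 fold change of -0.19 ± 0.13 (SE) did not pass edgeR's quasi-likelihood test (adjusted p = 0.422). Ndufs1 lies on chr1:63143592-63176822, minus strand (GRCm38).

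Electrons leave the matrix arm for ubiquinone through the subunits nearest the membrane. Ndufs8, which holds a pair of clusters, had 96.2 and 94.7 CPM in cuff and 110.4 and 83.1 CPM in sham. Ndufs7, which holds the last cluster before ubiquinone, had 104.7 and 110.4 CPM in cuff and 118.3 and 90.4 CPM in sham. Ndufs3, a structural core subunit of the same region, had 83.9 and 84.4 CPM in cuff and 86.0 and 70.0 CPM in sham. In all 3 genes the groups overlapped, sham 1 was the highest library and sham 2 the lowest. A processed pseudogene, Gm12251, matches 792 bases of the Ndufs3 transcript at 98.6% identity, and the sources used here do not state how reads that fit both were handled.

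The accessory subunits are not needed for the chemistry itself but for assembly and stability. Ndufb8, in the distal membrane arm, had 191.8 and 201.9 CPM in cuff, against 183.0 and 156.5 CPM in sham. Its groups did not overlap, and its log2 fold change of 0.21 ± 0.13 (SE) did not pass edgeR's quasi-likelihood test (adjusted p = 0.371). With the length and GC correction the value for Ndufb8 was -0.03. Ndufb8 and Ndufs1 were the only 2 of 42 complex I genes with non-overlapping groups, 4.76%, against 54.1% of all tested genes.

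The other accessory subunits with the smallest unadjusted p-values, chosen in each direction, had overlapping groups. Ndufb10, a neighbour of Ndufb8, had 129.2 and 136.2 CPM in cuff and 135.6 and 105.5 CPM in sham. Ndufs5, on the intermembrane-space face, had 90.7 and 85.2 CPM in cuff and 90.8 and 70.4 CPM in sham. Ndufa3, of the membrane arm, had 78.0 and 81.9 CPM in cuff and 81.8 and 65.1 CPM in sham. In these 3 genes sham 2 alone lay well below the other libraries, and the log2 fold changes were 0.14, 0.13 and 0.12. Ndufs6, a zinc-binding subunit of the matrix arm, had 49.4 and 56.0 CPM in cuff and 54.0 and 45.5 CPM in sham. Its log2 fold change was 0.08 ± 0.14 (SE).

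On the other side of 0 the order of the libraries was again set by the sham pair. Ndufa9, which sits near the joint of the arms and binds a nucleotide, had 140.6 and 126.0 CPM in cuff and 163.4 and 125.4 CPM in sham. Ndufa10, a relative of nucleoside kinases, had 175.3 and 172.8 CPM in cuff and 206.6 and 166.0 CPM in sham. Ndufc2, of the membrane arm, had 104.4 and 100.4 CPM in cuff and 122.1 and 94.4 CPM in sham. Their log2 fold changes were -0.12, -0.10 and -0.08, each smaller than its standard error of 0.14. Ndufa6, a small matrix-arm subunit, had 18.4 and 17.4 CPM in cuff and 22.0 and 15.4 CPM in sham. Ndufa2, a thioredoxin-like subunit of the matrix arm, had 58.3 and 53.2 CPM in cuff and 63.6 and 51.8 CPM in sham. In both genes the cuff libraries lay inside the range of the sham libraries.

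The nuclear genes moved together between individual libraries. Sham 1 was the highest library for 30 of 35 and sham 2 the lowest for 34 of 35, while over all tested genes these libraries were highest and lowest in 25.4% and 25.2%. Both held at once for 29 of 35 nuclear genes, 82.9%, against 8.12% of all tested genes. Every nuclear gene was higher in sham 1 than in sham 2, by 0.19 to 0.52 on the log2 scale, with a median of 0.37. Over all tested genes the median of that difference was -0.03. Between cuff 1 and cuff 2 the nuclear genes differed by a median of 0.01, from -0.29 to 0.16. For 34 of 35 nuclear genes the sham libraries differed from each other by more than the groups did, against 45.2% of all tested genes. The 35 genes lie on 15 chromosomes.

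Length moved with that difference too. In the tenth of genes with the shortest transcripts, whose median of 937 bases is close to that of the complex I genes, sham 1 exceeded sham 2 by a median of 0.23 on the log2 scale. In the tenth with the longest transcripts the median was -0.28. After the correction for length and GC content, sham 1 still exceeded sham 2 by a median of 0.23 in the nuclear complex I genes, against 0.04 in all genes fitted. Oligodendrocyte markers also differed between the sham libraries (29920 CPM in sham 1 and 24400 CPM in sham 2), and their part in the difference was not tested.

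**Figure D2:**
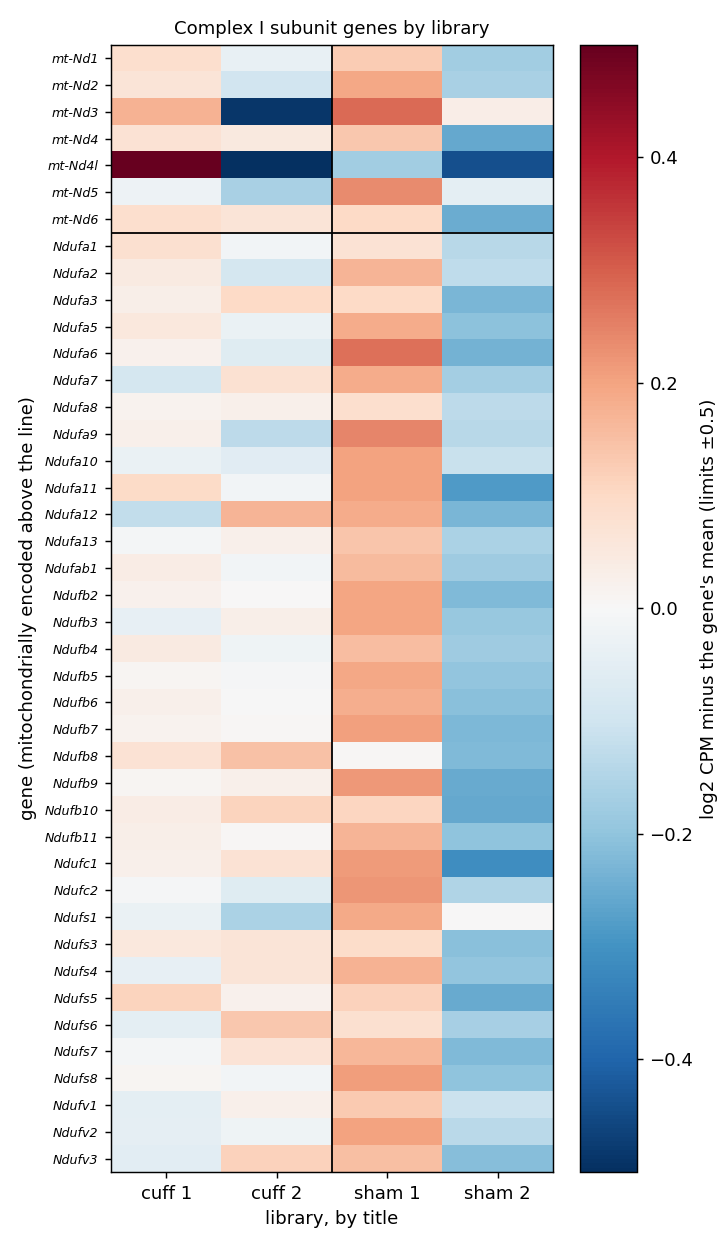
Log2 CPM of each of the 42 complex I genes minus its own mean over the 4 libraries (colour), with cuff 1, cuff 2, sham 1 and sham 2 in columns and mitochondrial genes above the line. The sham 1 column is highest for 30 of 35 nuclear genes and the sham 2 column lowest for 34 of 35, while colours are cut at 0.5 for mt-Nd4l.

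Promoter letters were examined because these genes, spread over many chromosomes, moved together between libraries. Any part of the letters in that movement was not tested. Among the binding letters known from nuclear genes of the respiratory chain are those of NRF1, an activator of such genes, of the ETS factor GABP and of YY1. A promoter of 300 bases, 250 before and 50 after the start, was matched in RefSeq's table (GRCm38.p6) for 32 of 35 nuclear genes, not for Ndufa2, Ndufb9 or Ndufs1. Both strands were searched, and motifs could overlap. The NRF1 core letters TGCGCA were in 10 of 32 promoters, 31.2%, against 8.06% of 27025 promoters of the same length. The YY1 letters AAGATGGCG were in 5 of 32, 15.6%, against 1.49% of all promoters. The ETS letters CGGAAG were in 21.9%, against 17.2%, and the estrogen-related receptor letters AAGGTCA in 9.38%, against 4.66%. The GC box GGGCGG was in 46.9%, against 35.9%, CCAAT in 31.2%, against 37.9%, and TATAAA in 12.5%, against 14.2%. The members' promoters were richer in GC, with a median of 59.2% against 52.7%, and no allowance was made for that. A match describes letters in the window and shows no binding. The promoters of Ndufb8, the gene with the highest level per length, and of Ndufa9, which holds NRF1, ETS and YY1 letters together, are given with those letters in capitals on either strand. They lie on the minus strand at chr19:44555393-44555692 and chr6:126849095-126849394.
Ndufb8 promoter: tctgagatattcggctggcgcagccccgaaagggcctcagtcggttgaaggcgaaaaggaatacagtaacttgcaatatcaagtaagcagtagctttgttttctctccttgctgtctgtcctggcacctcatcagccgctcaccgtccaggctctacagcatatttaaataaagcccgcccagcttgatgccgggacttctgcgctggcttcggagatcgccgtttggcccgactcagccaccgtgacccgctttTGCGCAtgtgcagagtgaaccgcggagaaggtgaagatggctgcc
Ndufa9 promoter: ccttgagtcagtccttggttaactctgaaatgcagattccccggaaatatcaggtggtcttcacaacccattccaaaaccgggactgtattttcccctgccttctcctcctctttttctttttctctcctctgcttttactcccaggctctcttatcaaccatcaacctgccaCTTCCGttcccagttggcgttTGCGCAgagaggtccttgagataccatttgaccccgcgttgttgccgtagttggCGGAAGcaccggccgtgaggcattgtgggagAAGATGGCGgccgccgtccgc

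Levels per transcript length placed most nuclear genes close together. On the scale of CPM per kilobase of transcript the 35 nuclear genes had a median level of 99.1, and 26 lay within 2-fold of it. The middle of the distribution ran from 66.7 to 116.9 CPM per kb between its quartiles. Ndufb8 was highest at 269.5 CPM per kb, and its lowest library (230.1) lay above the highest library of the next gene, Ndufb9 (222.3). Ndufb10, Ndufa11 and Ndufc2 followed at 173.0, 172.9 and 154.2 CPM per kb, and the ranges of these neighbours over the 4 libraries overlapped. Ndufa8, a subunit of the intermembrane-space face, was lowest at 11.4 CPM per kb, 23.6-fold under Ndufb8. It had 9.93 and 9.99 CPM in cuff and 10.4 and 8.96 CPM in sham, so that its groups overlapped.

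The order of levels was nearly the same in each library: a gene's rank among the 35 shifted by a median of 1 place and by at most 7. Ndufa12, Ndufb2 and Ndufab1 stood at 15.3, 15.6 and 23.1 CPM per kb. The lengths of Ndufb2 and Ndufab1, 4371 and 3479 bases, come from the longest of several principal transcripts, so that their levels per kilobase depend on that choice. Processed pseudogenes match part of Ndufa12 (99.5% over 402 bases), Ndufab1 (99.8% over 468 bases), Ndufb4 (100% over 390 bases) and Ndufs5 (99.4% over 319 bases). Of these copies only that of Ndufb4 was found by name among the counted identifiers, of which 1887 of 27179 matched no symbol. Ndufa13, Ndufb5 and Ndufb6 share exonic bases with a neighbouring gene on the opposite strand. Ndufb9 shares such bases with Gm49356 on the same strand, which was not found by name among the counted identifiers. Counts of the genes with a processed pseudogene, Ndufs3 included, are uncertain by the share of reads that fit both places. Those of Ndufa13, Ndufb5 and Ndufb6 are uncertain if strands were not kept apart in the counting, which is not stated.

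**Figure D3:**
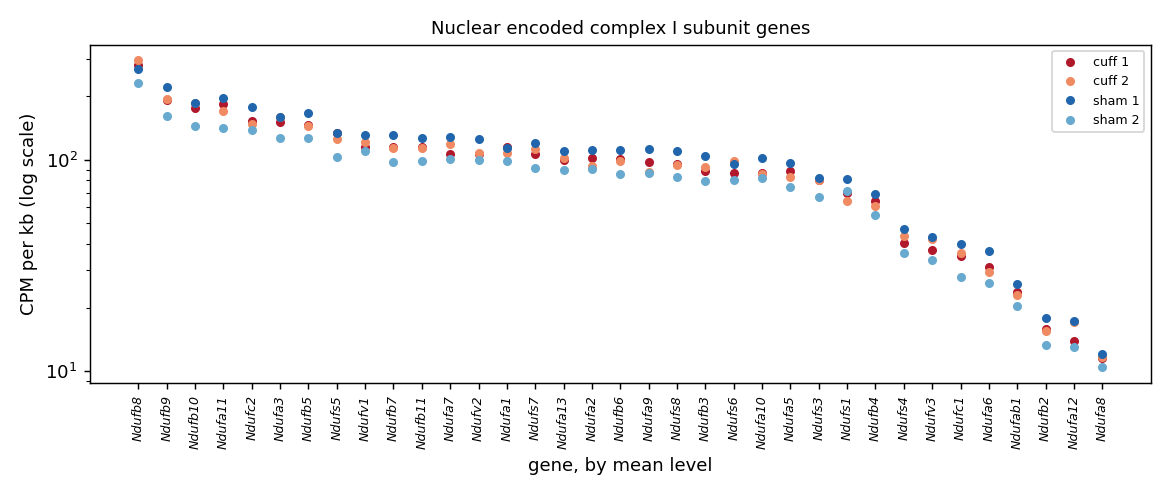
Level of each of the 35 nuclear complex I genes in CPM per kb of transcript (vertical axis, log scale) in the 4 libraries, ordered by mean level. Most genes lie near the median of 99.1 CPM per kb, with Ndufb8 at the top and Ndufa8 at the bottom.

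The mitochondrial genes supplied most complex I transcripts. Their 7 genes took 3.48% ± 0.09 of all counts in cuff and 3.35% ± 0.48 in sham (SD, n = 2 each), and the 35 nuclear genes 0.336% ± 0.00867 in cuff and 0.323% ± 0.0480 in sham. Summed CPM of the mitochondrial genes were 35414 and 32912 in cuff, against 38096 and 30336 in sham. The sums of the nuclear genes were 3299 and 3301 CPM in cuff, against 3679 and 2903 CPM in sham. Both sums were highest in sham 1 and lowest in sham 2, by 1.26-fold between those libraries for the mitochondrial and 1.27-fold for the nuclear genes. The ratio of mitochondrial to nuclear counts was 10.7 and 9.97 in cuff and 10.4 and 10.5 in sham. Its log2 value was 3.37 ± 0.08 in cuff and 3.38 ± 0.01 in sham (SD, n = 2 each), so that the difference of -0.008 was smaller than the spread within cuff. With the length and GC correction the difference was 0.11, of the opposite sign. The spread of the corrected ratio within groups is not given here, so that this value cannot be set against it. Without correction, the sham libraries differed in the level of both gene sets and hardly in their ratio.

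**Figure D4:**
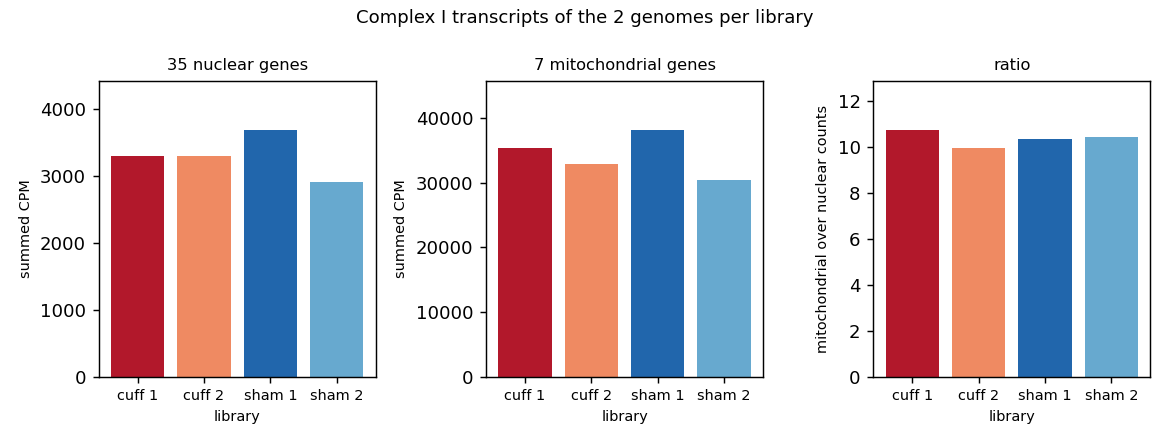
Summed CPM of the 35 nuclear genes (left), of the 7 mitochondrial genes (middle) and the ratio of mitochondrial to nuclear counts (right), 1 bar per library. Sham 1 is highest and sham 2 lowest in both sums, while the ratio stays between 9.97 and 10.7.

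The mitochondrial core subunits form the membrane arm. mt-Nd1, which lines the ubiquinone channel, had 11429 and 10510 CPM in cuff and 11768 and 9564 CPM in sham. mt-Nd2, a proton-pumping subunit, had 8193 and 7337 CPM in cuff and 8954 and 6999 CPM in sham. For both genes the cuff libraries lay between the sham libraries. The pumping subunit mt-Nd4 had 6824 and 6718 CPM in cuff and 7124 and 5446 CPM in sham. mt-Nd5, at the far end of the arm, had 6276 and 5719 CPM in cuff and 7531 and 6187 CPM in sham. Its log2 fold change was -0.19 ± 0.16 (SE, edgeR's quasi-likelihood test, adjusted p = 0.516), and that of mt-Nd4 was 0.11 ± 0.16. mt-Nd6, the subunit encoded on the opposite strand, had 2623 and 2588 CPM in cuff and 2653 and 2085 CPM in sham, with the sham 2 library alone standing lower.

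mt-Nd5 and mt-Nd6 overlap by 14 bases on opposite strands, and mt-Nd4l and mt-Nd4 share 7 bases on the same strand. The libraries were strand-specific, but the strand setting of the counting is not stated, so that reads of mt-Nd6 and reads antisense to it cannot be told apart. The junctions, read on the strand of mt-Nd5 and mt-Nd4 at chrMT:13536-13581 and chrMT:10144-10196 (GRCm38), show the shared bases in capitals.
mt-Nd5 and mt-Nd6: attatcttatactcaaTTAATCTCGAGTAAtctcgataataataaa
mt-Nd4l and mt-Nd4: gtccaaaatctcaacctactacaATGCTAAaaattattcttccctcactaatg

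These 5 genes held 99.8% of the counts of the mitochondrial complex I genes, and their median level per kilobase was 48.4-fold above the nuclear median. mt-Nd1 stood at 11304 CPM per kb, mt-Nd2 at 7583, mt-Nd6 at 4792, mt-Nd4 at 4737 and mt-Nd5 at 3524. The median of the 5 is thus the value of mt-Nd6, whose reads cannot be told apart from reads antisense to it. The remaining 2 were far lower, mt-Nd3 at 149.3 and mt-Nd4l at 18.3 CPM per kb. They are part of an unbroken run of low genes in the order of the mitochondrial genome. From mt-Co2 over mt-Atp8, mt-Atp6 and mt-Co3 to mt-Nd4l, all 6 stood between 18.3 and 149.3 CPM per kb. The genes on either side of the run, mt-Co1 and mt-Nd4, stood at 18323 and 4737 CPM per kb. mt-Co2, mt-Atp6, mt-Co3, mt-Nd3 and mt-Nd4l each have a near-identical copy on chromosome 1, annotated as an unprocessed pseudogene. Only annotated transcripts were searched, and for mt-Atp8 none elsewhere reached 97% identity over 150 bases. mt-Atp8 starts after mt-Co2 and runs into mt-Atp6, whose copies lie at chr1:24614885-24615565 and chr1:24613974-24614651. The sequence between those copies was not aligned, so that a copy of mt-Atp8 there was not tested.

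The copies follow the same order as the mitochondrial genes. Gm10222 matches 294 of 297 bases of mt-Nd4l at 100%, and Gm28438 matches 345 of 348 bases of mt-Nd3 at 99.7%, with 1 mismatch. Gm28439 matches 876 of 1378 bases of mt-Nd4 at 100%, and Gm29216 matches 483 of 1545 bases of mt-Co1 at 99.8%. On chromosome 2, Gm13340 matches all 1545 bases of mt-Co1 at 97.6%, although mt-Co1 is not among the low genes. None of these copies was found by name among the counted identifiers, of which 1887 of 27179 matched no symbol. How reads that fit more than 1 place were counted is not stated, and the part of the copies in the low counts was not tested. The first 43 bases of mt-Nd3 (chrMT:9459-9501, plus strand) and of its copy (chr1:24613077-24613119, minus strand) show how little there is to tell them apart. The capital marks the difference, T3C, with mt-Nd3 as the reference and positions counted from its first base.
mt-Nd3: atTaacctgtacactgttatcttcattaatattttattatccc
Gm28438: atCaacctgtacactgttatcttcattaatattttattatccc

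mt-Nd3 and mt-Nd4l had the widest intervals of the 42 genes. mt-Nd3 had 57.4 and 36.3 CPM in cuff and 62.0 and 52.1 CPM in sham, with cuff 2 alone lower. Its log2 fold change of -0.28 ± 0.21 (SE) did not pass edgeR's quasi-likelihood test (adjusted p = 0.489), while in the same test it was -0.70 without cuff 1 (adjusted p = 0.00703) and 0.0076 without cuff 2 (adjusted p = 0.997). mt-Nd4l had 11.5 and 2.81 CPM in cuff, from 415 and 96 counts, and 4.08 and 3.39 CPM in sham, from 156 and 131 counts. Cuff 1 alone was high. Its log2 fold change was 0.94 ± 0.87 (SE, adjusted p = 0.634), 1.62 without cuff 2 (adjusted p = 0.00344) and -0.46 without cuff 1 (adjusted p = 0.489) in the same test. In mt-Atp6, another gene of the run, cuff 1 was high as well, with 81.1 and 18.9 CPM per kb in cuff and 28.6 and 18.4 CPM per kb in sham.

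**Figure D5:**
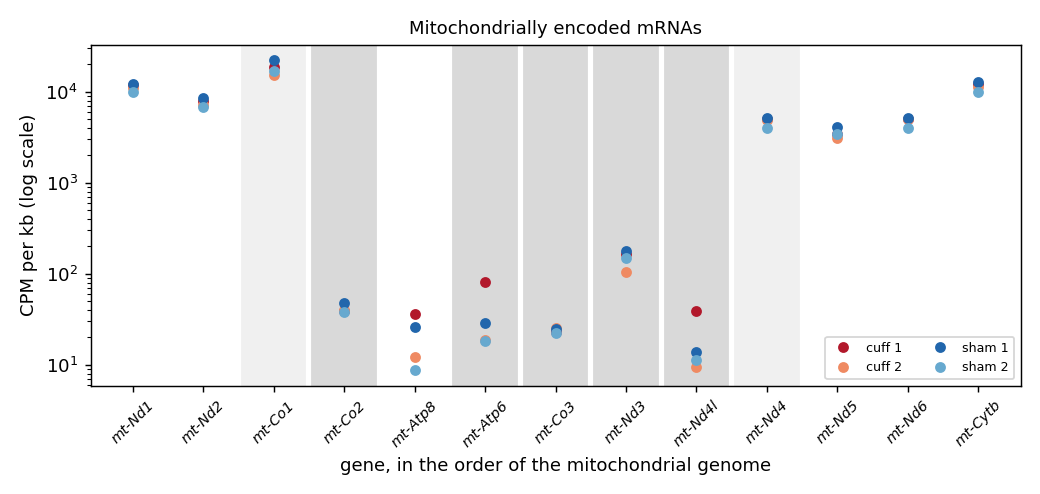
Level of the 13 mitochondrially encoded mRNAs in CPM per kb (vertical axis, log scale) in the 4 libraries, in genome order. Dark bands mark genes with a near-identical annotated copy on chromosome 1 over nearly their whole length, and light bands genes copied in part. Sequence outside annotated transcripts was not searched. The genes from mt-Co2 to mt-Nd4l lie far below the rest.

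The other respiratory complexes gave no call either. Complex II, which feeds electrons from succinate, had 3 of 4 genes tested, with Sdhd left out at 1 to 9 counts per library. Complex III had 8 of 9 nuclear genes tested, with Uqcr11 left out at 0 or 1 count. All 11 nuclear genes of complex IV and all 15 of ATP synthase were tested. Their median log2 fold changes were 0.05, 0.01, 0.00 and 0.02 in that order. Uqcrc1, a structural core protein of complex III, came nearest to the threshold among them, with 296.3 and 311.2 CPM in cuff, against 236.6 and 240.4 CPM in sham. Its groups did not overlap, and its log2 fold change of 0.35 ± 0.13 (SE) had an adjusted p of 0.123 in edgeR's quasi-likelihood test. The smallest p-values of the other 3 lists belonged to Sdhc, Cox6a1 and Atp5d, with adjusted p-values of 0.273, 0.369 and 0.248 in the same test. The 6 mitochondrial mRNAs outside complex I had no call, mt-Co1 having the smallest p (log2 fold change -0.19, adjusted p = 0.602 by edgeR).

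The order of the sham libraries was also counted in these complexes. Sham 1 was highest and sham 2 lowest in 11 of 15 ATP synthase genes, 8 of 11 complex IV genes, 5 of 8 complex III genes and 1 of 3 complex II genes, against 29 of 35 nuclear complex I genes. The median log2 difference between sham 1 and sham 2 was 0.35 for ATP synthase, 0.36 for complex IV, 0.31 for complex III and 0.13 for complex II. Among the 16 assembly factors of complex I, sham 1 was highest and sham 2 lowest in 4, and the median difference was 0.15. Among 16 genes of mitochondrial transcription, RNA handling and biogenesis the count was 3 and the median -0.03. The differences between these lists were not tested, and their transcripts differ in length, with medians of 1656 bases for the assembly factors and 3120 bases for the biogenesis genes.

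Genes that build complex I or regulate its transcription gave no call. Of the 16 assembly factors, 7 lay above 0 and 9 below, with a median log2 fold change of -0.003. Tmem126b, needed to assemble the membrane arm, had 18.4 and 14.9 CPM in cuff, against 24.6 and 19.5 CPM in sham. Its groups did not overlap, and its log2 fold change of -0.41 ± 0.17 (SE) had an adjusted p of 0.169 in edgeR's quasi-likelihood test. Of the 16 biogenesis genes, 4 had an unadjusted p under 0.05, near the 21.5% of all tested genes. Ppargc1b, a coactivator of mitochondrial biogenesis, had the smallest, with 4.02 and 2.96 CPM in cuff, against 4.79 and 7.59 CPM in sham. Its log2 fold change was -0.82 ± 0.29 (SE, edgeR's quasi-likelihood test, adjusted p = 0.105).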

How the data were processed

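Raw counts per Entrez gene identifier were deposited by the authors, 1 file per library. Per the submitters' processing notes, Trimmomatic 0.30, HISAT2 2.0.1 and featureCounts were used with mouse build mm10. The annotation, the strand setting and the rule for reads with several matches were not stated. In 1 deposited file, that of cuff 2, identifier and count were joined by a literal separator and were split there.

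Genes passing filterByExpr by group received TMM factors and were tested in R 4.3.3 with edgeR 4.0.16, by its two-sided quasi-likelihood test with robust fitting, no covariate and Benjamini-Hochberg adjustment over all 16918 genes. The steps were run on simulated counts that held neither a trend with length nor a shift shared by genes between libraries. The share of changed genes recovered there is not given here. DESeq2 1.42.0 and limma 3.58.1 gave alternatives. CPM use the scaled totals of tested genes. Lengths are of the longest principal transcript (GENCODE M21), GRCm38 being the assembly of mm10. Copies were sought by aligning transcripts, at 97% identity or more over at least 150 bases. No library was a copy of another: over the 6 pairs, chi-square was 25.4 to 72.7 times its degrees of freedom.

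Members and lists were chosen with earlier results of these data known. Named were all mitochondrial members, the nuclear core subunits listed, the 5 other nuclear members with the smallest p in each direction, those with the highest and lowest level per kilobase, and of each other list the gene with the smallest p. Ndufb9, Ndufa11, Ndufa12, Ndufb2, Ndufab1, the genes with copies or overlaps and mt-Atp6 were added after their values were seen.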

Additional observations from a re-analysis of the deposited data

How the results depend on the processing

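Over 15 alternatives no nuclear complex I gene was called, except Ndufv1 with the length and GC correction and the replicate block together (1 nuclear gene, log2 fold change -0.29, adjusted p = 0.0477 by edgeR). That setting also called 1 mitochondrial gene, mt-Nd3 (-0.54, adjusted p = 0.0291 by edgeR). Leaving out libraries gave 0 to 1 mitochondrial calls, mt-Nd3 without cuff 1 and mt-Nd4l without cuff 2, and 0 nuclear calls. Genes called over the whole table, 696 in the main test, were 1086 with DESeq2, 1046 with edgeR's likelihood ratio test, 1292 with no filter and 253 with the length and GC correction (71 higher, 182 lower). They ranged from 0 without sham 1 to 1928 without cuff 1, with 216 without cuff 2 (158 higher, 58 lower, a balance opposite to that of all libraries) and 13 without sham 2. With so few calls without a sham library, the absence of member calls there says nothing about stability. The nuclear median was -0.17 with the correction, with or without the block, against -0.041 for all genes, and ran from -0.16 without sham 2 to 0.19 without sham 1. The cuff minus sham difference in the log2 ratio of mitochondrial to nuclear CPM, -0.008 as reported, was 0.11 with the correction, with or without the block. It ran from -0.061 to 0.046 over the left-out libraries. It was -0.035 when only mt-Nd1, mt-Nd2, mt-Nd5 and mt-Nd6, the genes with no near-identical copy, were summed, an alternative chosen after seeing the data.

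Of 360 values of named members under alternatives, 47 changed sign, none of them called in either fit. With upper quartile scaling Ndufs8 was 0.0038. With the length and GC correction the values were -0.046 for mt-Nd1, -0.045 for mt-Nd6, -0.10 for Ndufs3, -0.24 for Ndufs7, -0.034 for Ndufb8, -0.11 for Ndufb10, -0.037 for Ndufs5, -0.089 for Ndufa3, -0.17 for Ndufs6 and -0.19 for Ndufa8. With the replicate block added they were, in the same order, -0.044, -0.045, -0.10, -0.23, -0.035, -0.10, -0.038, -0.088, -0.17, -0.19. Over the left-out libraries the members that changed sign ranged as follows: mt-Nd1 from -0.11 to 0.18, mt-Nd4l from -0.46 to 1.62, Ndufa8 from -0.067 to 0.13, mt-Nd2 from -0.21 to 0.13, mt-Nd3 from -0.70 to 0.0076, Ndufs6 from -0.039 to 0.19, Ndufa2 from -0.19 to 0.0903, Ndufs8 from -0.21 to 0.18, Ndufv1 from -0.14 to 0.081, Ndufv2 from -0.24 to 0.084, Ndufa9 from -0.30 to 0.071, Ndufa10 from -0.25 to 0.051, Ndufc2 from -0.26 to 0.0998, Ndufa6 from -0.30 to 0.20, mt-Nd4 from -0.077 to 0.30, mt-Nd6 from -0.0301 to 0.30, Ndufs3 from -0.035 to 0.25, Ndufs7 from -0.14 to 0.23, Ndufb10 from -0.035 to 0.31, Ndufs5 from -0.0503 to 0.30, Ndufa3 from -0.037 to 0.28. The cause was not tested. Whether same-numbered libraries share more than a number is not stated in the sources used here. The correlation of their deviations was 0.116, and the replicate block alone gave 554 calls and no member call. The fitted coefficient of variation between libraries was 0.152 without and 0.130 with the block. With the length and GC correction it was 0.127 without the block (253 calls) and 0.096 with it (564 calls). A batch shared by same-numbered libraries was not tested. With 1 library left in a group, its spread is assumed to be that of the other group.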
